A study of Mus musculus with 8 samples.

Results

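Whole skin of wild-type embryos at embryonic day 16.5 (E16.5) was set beside epidermis of control embryos at embryonic day 18.5 (E18.5), using 3 of the 8 RNA sequencing libraries of the series. The E16.5 value is the authors' single column for 2 libraries of wild-type skin, and the E18.5 value comes from 1 library of epidermis with the genotype Cyp26b1f/+, which carries 1 floxed and 1 wild-type allele. All samples are labelled C57BL/6. Beside them stand the other E18.5 columns where they bear on a result: 1 library of Cyp26b1f/+ dermis and 1 library of epidermis labelled En1cre;Cyp26b1f/-. By that label, a Cre recombinase expressed from the Engrailed 1 locus acts on a floxed allele of Cyp26b1, which encodes an enzyme that degrades retinoic acid, and the other allele is null, but the Cyp26b1 level of this library, given below, was above that of the control. Values are FPKM, fragments per kilobase of transcript relative to library size, summed over the transcripts of a gene. After removal of 483 symbols whose estimate the authors' program marked as unusable and of 7523 below 1 FPKM on both sides, 13876 of 21882 gene symbols were compared.

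Between these ages the mouse epidermis completes its barrier. Basal cells held by hemidesmosomes give rise to spinous cells rich in keratins and desmosomes, and granular cells then make envelope proteins that transglutaminases crosslink under the membrane, lipids that seal the spaces between the cells, and proteases that cut the desmosomal remnants when cells are shed. A temporary outer sheet, the periderm, is shed when the cornified layer beneath it is complete. Envelope genes lie side by side on chromosome 3 in the epidermal differentiation complex, with late cornified envelope (Lce), small proline-rich (Sprr), filaggrin-family and S100 genes.

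In the E18.5 epidermis all 12 measured Lce1 genes, most kallikreins and the transglutaminases Tgm3 and Tgm5 stood above the level of general keratinocyte genes. Genes of the periderm, of simple epithelia, of cell division and of dermal tissues mostly stood below it. The measure is the log2 difference of FPKM + 1, epidermis minus skin, after subtraction of its median over 18 genes of basal and spinous keratinocytes. That median was 0.50, a 1.42-fold higher level in the epidermis column, and all differences below are relative to it. The pseudocount of 1 FPKM understates differences of low genes. A gene was counted as higher or lower from a scaled difference of 1, which is 2-fold. Of all genes compared, 492 (3.55%) were higher and 8850 (63.8%) lower, and the median gene stood at -1.48. The epithelial lists, without the reference genes, held 242 genes compared, of which 53 (21.9%) were higher and 100 (41.3%) lower. They include 23 cell cycle genes, all lower, and without these 53 of 219 (24.2%) were higher and 77 (35.2%) lower. Of the 242 genes, 27 were below 1 FPKM in the epidermis and so passed the minimum only through the skin, and all 27 were counted as lower. A further 7 passed only through the epidermis, and 3 of them were counted as higher. These counts describe libraries. The skin column pools its libraries, the epidermis has 1, and the tables were scaled separately, so no spread between embryos and no test could be had. Age, tissue (whole skin against separated epidermis), genotype and table cannot be told apart.

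The precision of a difference can be bounded only from the authors' model. For genes with 1 transcript the deposited folds and test statistics give an upper limit on the model's standard error (SE) of the log2 ratio between the tables, with a median of 0.525 and quartiles of 0.506 and 0.564 where both sides reached 5 FPKM. It holds neither the spread between embryos nor the error of scaling, and it is printed below as "SE at most". Read depth is unknown, since FPKM values do not carry it.

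**Figure D1:**
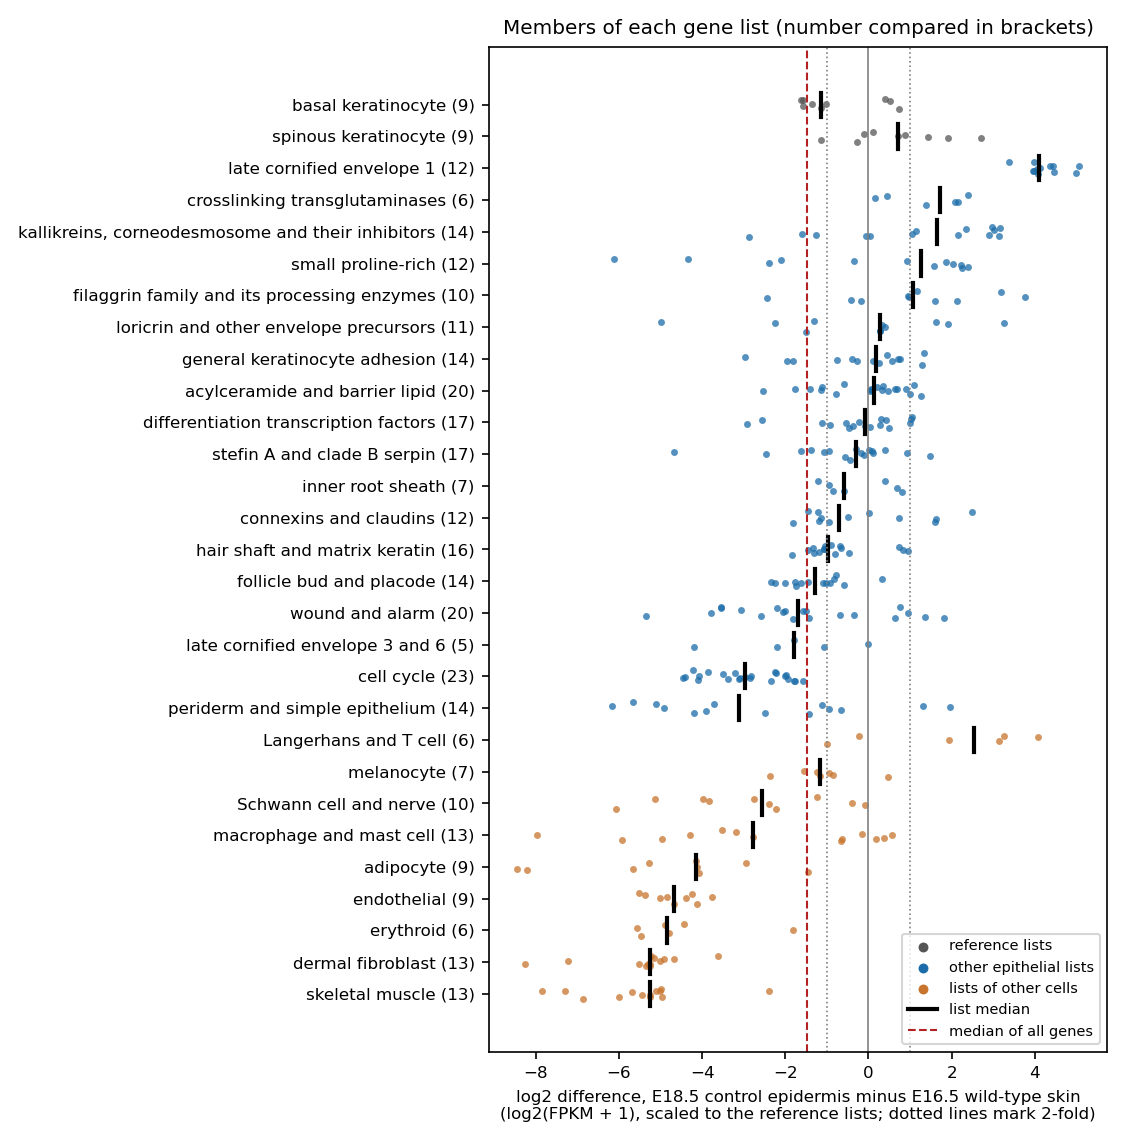
Each point is 1 gene, placed on the horizontal axis by its scaled log2 difference, E18.5 control epidermis minus E16.5 wild-type skin; bars mark list medians, the dashed line the median of all genes at -1.48, and the dotted lines a 2-fold difference. The Lce1 genes sit together at 3.38 to 5.06, all cell cycle, fibroblast, muscle, endothelial, erythroid and adipocyte genes lie below -1, and the 2 Merkel cell genes compared are not drawn.

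The reference genes themselves did not move as 1 group. Of the basal list, 9 of 10 genes were compared, with Trp63 left out by its status, and 6 of them were lower and 0 higher, with a median of -1.14. That share is near the 63.8% of all genes that were lower. The basal keratins differed little from the reference: Krt5 was at 1417 FPKM in the skin and 2634 in the epidermis (scaled difference 0.39, SE at most 0.89), and Krt14 at 734 and 1496 FPKM (0.52, SE at most 0.75). The 6 lower genes encode adhesion and anchoring proteins, and their differences lay around the all-gene median of -1.48. Col17a1, a transmembrane collagen of hemidesmosomes, was at 65.8 FPKM in the skin and 30.9 in the epidermis (-1.57, SE at most 0.53). Itgb4, the integrin chain of hemidesmosomes, was at 22.0 and 9.88 FPKM (-1.58).

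Basal genes were more abundant in the E18.5 dermis library than in the epidermis library. The 9 basal genes summed to 5739 FPKM in control epidermis and 12560 FPKM in control dermis, and 8 of the 9 were higher in the dermis, among them Krt5 at 6265 FPKM and Col17a1 at 261 FPKM. How much this bears on the low basal, follicle and cell cycle values in the epidermis column was not tested. In these tissue samples fewer cells of a type and less RNA per cell cannot be told apart.

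Of the spinous list, 9 of 12 genes were compared, 3 were higher and 1 lower, and the median was 0.71. Krt1, Krt10 and Sbsn were left out by status. Lgals7, a galectin of stratified epithelia, was at 1804 FPKM in the skin and 16661 in the epidermis (2.71, SE at most 0.96). Calm4, a calmodulin-like protein of skin, was at 2685 and 10246 FPKM (1.43, SE at most 1.00), and Lypd3 at 155 and 825 FPKM (1.91, SE at most 0.77). Krtdap, a secreted protein of suprabasal cells, stayed near the reference at 4452 and 6811 FPKM (0.11, SE at most 0.80). Dsc1, a desmosomal cadherin of the upper layers, was at 126 and 79.9 FPKM (-1.15, SE at most 0.59). Scaling to the basal list alone would raise every difference by 1.14, and to the spinous list alone would lower it by 0.71, so differences smaller than these depend on which layer is taken as the reference. The general adhesion list, which was not used for scaling, had a median of 0.19 over 14 genes, with 2 higher and 3 lower. Of these, Sfn, which encodes 14-3-3 sigma of keratinocytes, was at 420 and 1494 FPKM (1.33), and Dsc2 was at 7.07 and 0.46 FPKM (-2.97).

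The Lce1 genes encode small proteins that are added late to the cornified envelope, and they were the epithelial list highest in the epidermis. All 12 genes found in the tables were compared and all 12 were higher, with a median of 4.10 and a range of 3.38 to 5.06, against 3.55% of all genes. Their summed level was 2196 FPKM in the skin, 57292 in the control epidermis and 524 in the E18.5 dermis. The epidermis labelled En1cre;Cyp26b1f/-, the second column of the same table, held 57101 FPKM. Lce1a2 was at 134 FPKM in the skin and 6396 in the epidermis (5.06, SE at most 0.92). Lce1f was at 63.7 and 2922 FPKM (SE at most 0.82), and Lce1m, the most abundant member, at 660 and 14643 FPKM (3.97). The smallest difference of the family was that of Lce1l, at 93.9 and 1399 FPKM (3.38). The Lce1 genes resemble each other in sequence, so reads may be divided among them, and the family sum is safer than any single member.

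The Lce1 genes are not all contiguous. From Lce1a1 to Lce1l, which covers 204.8 kb of chromosome 3 from position 92450454 (mm9), 12 genes were compared and all 12 were higher. The block holds 1 gene of another family, Kprp, a keratinocyte proline-rich protein, at 210 and 921 FPKM (1.63). The next gene, 2310050C09Rik, named after its values were seen, was at 64.9 and 1877 FPKM (4.33). Crct1, a cysteine-rich gene of the same complex, lies between the Lce3 genes and Lce1m and was at 644 and 8820 FPKM (3.27, SE at most 0.92).

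The Lce3 and Lce6 genes lie in the same complex and were not higher. Of 5 genes compared, 0 were higher and 4 lower, with a median of -1.79, beside 63.8% lower and a median of -1.48 over all genes. With scaling to the basal list 1 was higher and 2 lower, and with the epidermis labelled mutant 1 was higher and 1 lower. Lce3f was at 86.2 FPKM in the skin, 5.72 in the control epidermis and 13.6 in the epidermis labelled mutant (-4.20, SE at most 0.79). Lce3c differed little, at 16.8 and 23.9 FPKM (-0.02, SE at most 0.61). Lce6a was at 96.4 and 64.5 FPKM (-1.07, SE at most 0.51). The start of Lce3a, at position 92729209, lies beyond the end of Lce1l at 92655208. Under the scaling used, the run of higher Lce1 genes was thus followed by Lce3 genes that were not higher.

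The upstream sequences of these families are shown because the Lce1 genes differed together while a neighbour family did not. RefSeq promoters (GRCm38.p6, a later build than the mm9 of the tables) were matched by symbol for 11 of the 12 Lce1 genes, Lce1f being the one unmatched, for 5 of 5 Lce3 and Lce6 genes and for 12 of 14 Sprr genes. Each sequence is the 250 bases before the annotated start, on the strand of the gene. Capitals mark the box-like motif ATAAAA, searched on both strands.
Lce1a2 (chr3:92670316-92670565, minus strand): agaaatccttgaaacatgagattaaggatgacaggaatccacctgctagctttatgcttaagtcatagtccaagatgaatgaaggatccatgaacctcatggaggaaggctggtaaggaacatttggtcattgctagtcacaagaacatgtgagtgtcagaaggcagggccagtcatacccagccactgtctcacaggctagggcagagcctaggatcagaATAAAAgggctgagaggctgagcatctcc
Lce1d (chr3:92687211-92687460, minus strand): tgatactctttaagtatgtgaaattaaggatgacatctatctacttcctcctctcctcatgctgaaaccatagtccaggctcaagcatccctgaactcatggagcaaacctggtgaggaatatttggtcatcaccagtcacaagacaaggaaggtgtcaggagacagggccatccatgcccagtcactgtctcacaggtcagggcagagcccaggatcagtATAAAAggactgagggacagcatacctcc
Lce3f (chr3:92991967-92992216, plus strand): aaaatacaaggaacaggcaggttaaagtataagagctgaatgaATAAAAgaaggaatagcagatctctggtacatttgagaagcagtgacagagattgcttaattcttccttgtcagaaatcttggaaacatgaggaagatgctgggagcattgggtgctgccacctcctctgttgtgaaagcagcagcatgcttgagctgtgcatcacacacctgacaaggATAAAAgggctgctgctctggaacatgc

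The motif did not separate the families. In Lce1a2 and Lce1d it begins 29 bases before the start. It was present in 10 of 11 Lce1 windows and in 5 of 5 Lce3 and Lce6 windows, against 17.6% of 27025 promoters. The AP-1 motif TGANTCA and the octamer ATGCAAAT, searched on both strands, were each in 0 of 11 Lce1 windows and in 0 of 5 Lce3 and Lce6 windows, against 6.87% and 1.61% of all promoters. A match describes letters in this window and shows no binding.

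**Figure D2:**
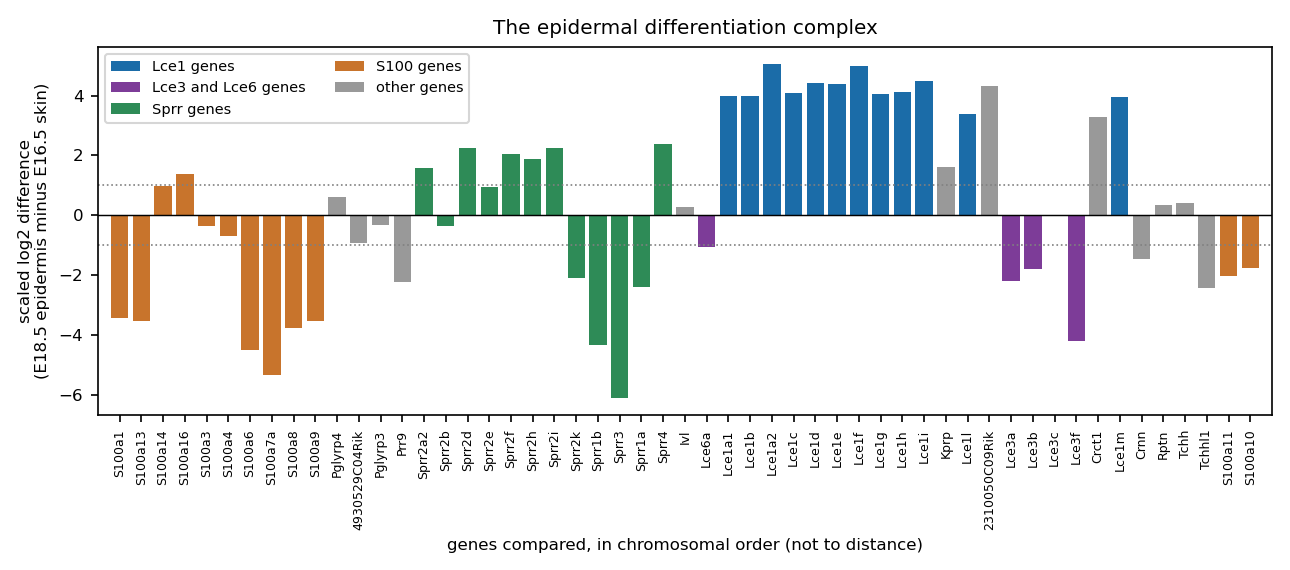
Bars give the scaled log2 difference (E18.5 control epidermis minus E16.5 wild-type skin) of genes of the epidermal differentiation complex that were compared, in chromosomal order and not to distance; dotted lines mark 2-fold. The Lce1 run stands above 3 throughout, with Kprp at 1.63 inside it, while the Lce3 genes and Sprr1b, Sprr3 and Sprr1a point down.

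Across the whole complex, from S100a1 to S100a10 (chr3:90314956-93368567, mm9), 53 of 64 genes were compared. Of these, 22 were higher and 19 lower, against 3.55% higher and 63.8% lower over all genes. Differences in the complex ran from -6.12 to 5.06. Of its S100 genes, which encode calcium-binding proteins, 12 were compared, 1 was higher and 8 were lower. That share of lower genes is near the 63.8% of all genes. S100a16 was the gene above, at 289 and 1054 FPKM (1.36). S100a11, a crosslinked envelope component, was at 973 and 335 FPKM (-2.04, SE at most 0.53), and S100a6 at 127 and 7.05 FPKM (-4.50, SE at most 0.89). These S100 genes were named after their values were seen.

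The Sprr genes, whose products bridge other envelope proteins, went in both directions. Of 12 compared, 6 were higher and 4 lower (3.55% and 63.8% over all genes), with a median of 1.26. However, 3 of the 12 passed the minimum only through the epidermis and 2 only through the skin. The Sprr2 genes and Sprr4 made up the higher members. Sprr2d was at 4.55 FPKM in the skin and 36.6 in the epidermis (2.26), Sprr2i at 1.34 and 14.6 FPKM (2.23), and Sprr4 at 7.01 and 58.3 FPKM (2.39, SE at most 1.19). The Sprr2 genes are near-identical copies, so values of single members are uncertain. The lower members included the abundant ones. Sprr1a was at 375 and 101 FPKM (-2.38, SE at most 0.50) and Sprr3, typical of the oral and oesophageal lining, at 51.4 and 0.07 FPKM (-6.12). Sprr1b was at 228 FPKM in the skin and 14.9 in the control epidermis (-4.35, SE at most 0.57). In the epidermis labelled mutant it was at 175 FPKM, still below the skin. With that column in place of the control, and the reference median taken anew, its scaled difference was 0.61. The summed level of the list was therefore lower in the epidermis, at 679 and 279 FPKM, although more of its members were higher.

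Promoters of 2 higher Sprr2 genes and of the lower Sprr1b and Sprr3 are shown because both kinds lie within the same gene cluster. Capitals mark the octamer ATGCAAAT (ATTTGCAT on the other strand) and the AP-1 motif TGANTCA.
Sprr2d (chr3:92338890-92339139, plus strand): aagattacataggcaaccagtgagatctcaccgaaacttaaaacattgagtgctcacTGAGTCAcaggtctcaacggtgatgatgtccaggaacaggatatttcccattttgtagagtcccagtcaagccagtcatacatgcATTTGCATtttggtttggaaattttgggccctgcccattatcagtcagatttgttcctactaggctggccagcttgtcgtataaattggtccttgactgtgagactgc
Sprr2h (chr3:92385435-92385684, plus strand): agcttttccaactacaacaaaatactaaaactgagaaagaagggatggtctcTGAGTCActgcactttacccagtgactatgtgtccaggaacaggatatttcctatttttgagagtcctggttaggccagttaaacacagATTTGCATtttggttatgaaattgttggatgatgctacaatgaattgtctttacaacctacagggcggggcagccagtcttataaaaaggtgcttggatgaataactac
Sprr1b (chr3:92438780-92439029, minus strand): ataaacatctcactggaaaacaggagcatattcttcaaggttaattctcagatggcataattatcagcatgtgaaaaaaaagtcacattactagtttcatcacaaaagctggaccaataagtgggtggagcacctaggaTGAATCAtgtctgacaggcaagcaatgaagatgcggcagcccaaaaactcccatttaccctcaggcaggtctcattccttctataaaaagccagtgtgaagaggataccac
Sprr3 (chr3:92458721-92458970, minus strand): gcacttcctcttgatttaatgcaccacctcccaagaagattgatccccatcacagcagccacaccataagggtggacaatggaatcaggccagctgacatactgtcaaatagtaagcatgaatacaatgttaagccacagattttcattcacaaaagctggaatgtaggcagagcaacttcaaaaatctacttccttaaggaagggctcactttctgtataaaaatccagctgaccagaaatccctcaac

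The octamer, found in 1.61% of all promoters, was in 7 of 8 Sprr2 windows. It was in 0 of the 3 windows of Sprr1a, Sprr1b and Sprr3, which at that share is the usual case. The octamer begins 108 bases before the start in Sprr2d and 109 in Sprr2h. The AP-1 motif, in 6.87% of all promoters, was in 7 of 8 Sprr2 windows and in 2 of those 3. It begins 111 bases before the start in Sprr1b. These letters did not track the direction gene by gene: Sprr2k, at 2.05 FPKM in the skin and listed at 0 in the epidermis, held both motifs, and the higher genes Sprr4 and Sprr2a2 held neither. The Sprr2 genes are recent copies of each other and share sequence beyond these letters, so the windows are not independent.

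Other envelope precursors split. Of 11 compared, 3 were higher and 4 lower, with a median of 0.28. Ivl, which encodes involucrin, an early envelope protein, was near the reference at 194 and 334 FPKM (0.28). Krt78, a keratin of upper layers, was at 67.2 and 360 FPKM (1.90, SE at most 0.80). Krt77, a type II keratin on chromosome 15 (101690287 to 101700049), was at 1069 FPKM in the skin, 46.6 FPKM in the control epidermis and 120 FPKM in the epidermis labelled mutant (-4.99, SE at most 0.56). Lor, which encodes loricrin, the main envelope protein, was listed at 2519 and 21262 FPKM, but its row carried a status of too much data and it was not compared.

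The transglutaminase list holds Tgm1, Tgm3 and Tgm5, and also Sult2b1, Csta and Cst6, which are not transglutaminases. Of its 6 genes, 4 were higher and 0 lower, with a median of 1.73, against 3.55% of all genes higher. Higher were Tgm3, Tgm5, Sult2b1 (1.38) and Cst6, while Csta stood at 0.46. Tgm3, a transglutaminase of the upper epidermis and hair, was at 15.4 and 121 FPKM (2.40, SE at most 0.65), Tgm5 at 2.39 and 20.5 FPKM (2.17) and Cst6, a cystatin that restrains the proteases acting on Tgm3, at 13.0 and 82.9 FPKM (2.08). Tgm1, the membrane-bound transglutaminase, stayed near the reference with a difference of 0.15. Of 10 genes compared in the filaggrin list, 5 were higher and 1 lower (3.55% and 63.8% over all genes), with a median of 1.07. Padi1 and Padi4, among the higher, passed the minimum only through the epidermis, and Tchhl1, the lower gene, only through the skin. Hal, histidine ammonia-lyase, which turns histidine released from filaggrin into urocanic acid, was at 22.5 and 453 FPKM (3.77, SE at most 0.83). Padi1, a peptidylarginine deiminase, was at 0.79 and 22.2 FPKM (3.20, SE at most 0.60), and Prss8, a membrane serine protease needed for barrier formation, at 27.4 and 176 FPKM (2.14, SE at most 0.60). Flg2, Hrnr and Asprv1 were left out by status.

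Genes of corneocyte shedding were also mostly higher. Of 14 kallikrein, corneodesmosome and inhibitor genes, 9 were higher and 3 lower (3.55% and 63.8% over all genes), with a median of 1.65. The list summed to 782 FPKM in the skin and 4630 in the epidermis. Klk7, a chymotrypsin-like protease of the stratum corneum, was at 127 and 811 FPKM (2.16), and Klk5, a trypsin-like protease that activates it, at 88.0 and 639 FPKM (2.34). The largest differences were those of Klk8, at 63.1 and 811 FPKM (3.16, SE at most 0.70), and its neighbour Klk9, at 19.8 and 261 FPKM (3.15, SE at most 0.64). Cdsn, the corneodesmosome protein that these proteases cut, was at 122 and 1377 FPKM (2.98, SE at most 0.91), and Serpina12, which encodes the serpin vaspin, at 16.2 and 197 FPKM (3.02). The members below were Klk10, at 70.3 and 32.3 FPKM (-1.60), Spink5, which encodes the inhibitor LEKTI, at 73.5 and 42.8 FPKM (-1.27), and Spink12, at 4.15 FPKM in the skin and listed at 0 in the epidermis.

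Barrier lipid genes had a median near the reference under the scaling used. Of 20 compared, 2 were higher and 5 lower, with a median of 0.14. The counts followed the scaling: 13 were higher and 1 lower with scaling to the basal list, 0 higher and 7 lower to the spinous list, and 14 higher and 1 lower with the epidermis labelled mutant. Slc27a4, a fatty acid transporter, was at 40.7 and 140 FPKM (1.26). Ugcg, which makes glucosylceramide, was at 35.2 and 7.83 FPKM (-2.54, SE at most 0.50). The lipoxygenase Alox12b was at 261 and 463 FPKM (0.32).

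Junction genes went in both directions. Of 12 connexins and claudins, 3 were higher and 5 lower, with a median of -0.71. Gjb5, a gap junction protein of the epidermis, was at 36.5 and 163 FPKM (1.63, SE at most 0.60). Cldn1, the main claudin of the epidermal tight junction, was at 111 and 44.3 FPKM (-1.80, SE at most 0.54).

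Of 17 differentiation transcription factors compared, 3 were higher and 3 lower, with a median of -0.07 whose sign changed with the scaling. Pou3f1, an octamer-binding factor, was at 17.1 and 51.9 FPKM (1.05, SE at most 0.56). Klf4, which is required for the barrier, was at 159 and 275 FPKM (0.28), and Grhl3, another such factor, at 81.8 and 80.1 FPKM (-0.53). Ehf, an ETS factor of epithelia, was at 14.8 and 1.94 FPKM (-2.92, SE at most 0.61), and Maf at 25.1 and 5.29 FPKM (-2.56, SE at most 0.53). Protease inhibitors of the stefin A and clade B serpin families had a median of -0.31 over 17 genes, with 1 higher and 5 lower, and a median of 0.39 with the GC and length trend removed. Serpinb11 was at 27.8 and 0.60 FPKM (-4.67, SE at most 1.17).

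**Figure D3:**
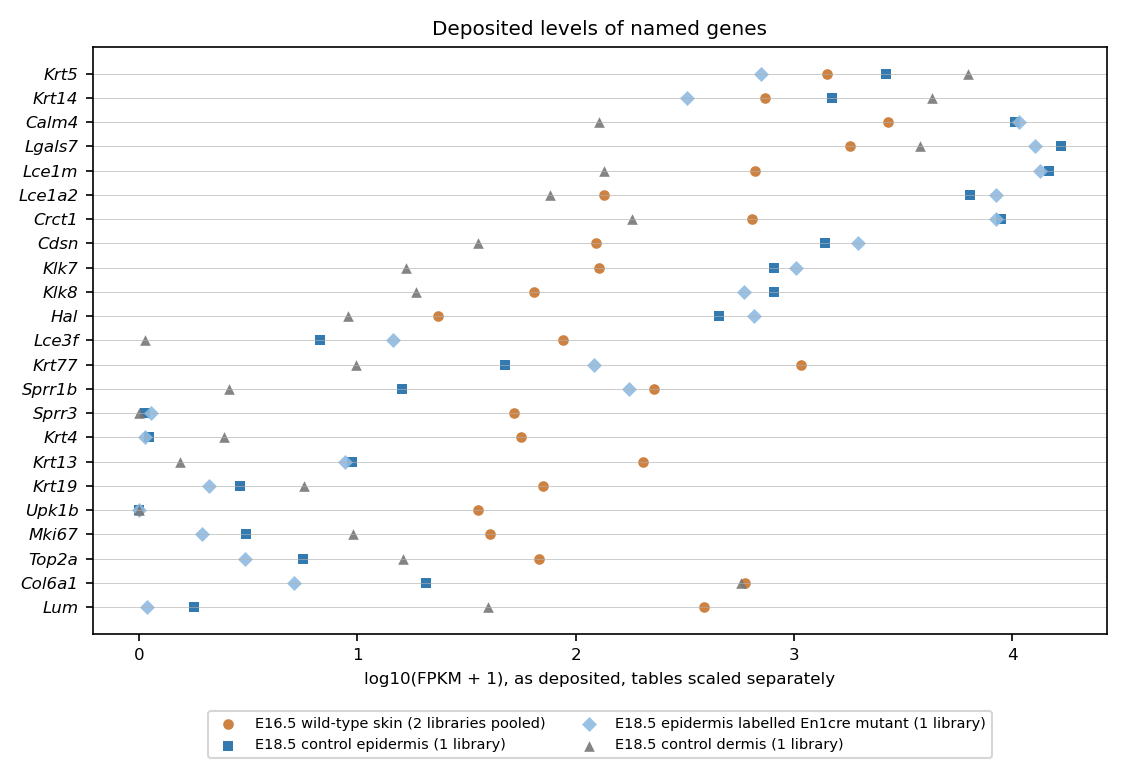
Deposited levels of 23 named genes are plotted as log10(FPKM + 1), 1 row a gene, for E16.5 wild-type skin and for control epidermis, epidermis labelled mutant and control dermis at E18.5. The 2 epidermis columns lie close together for the Lce1, Cdsn and kallikrein genes and apart for Krt5, Krt14 and Sprr1b, and the basal keratins are highest in the dermis library.

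Keratins and other genes of periderm and simple epithelia were mostly lower in the epidermis. Of 14 compared, 10 were lower and 2 higher, with a median of -3.11, against 63.8% of all genes lower. In 4 of them the epidermis was below 1 FPKM, so they were compared through the skin alone. Krt13, a keratin of mucosal epithelium, was at 202 FPKM in the skin and 8.44 in the epidermis (-4.93, SE at most 0.59), and its partner Krt4 at 55.0 and 0.11 FPKM (-6.16). Krt19, a keratin of simple and embryonic epithelium, was at 70.0 and 1.89 FPKM (-5.12, SE at most 0.96). Upk1b, a uroplakin, was at 34.6 FPKM in the skin and listed at 0 in the epidermis. The simple keratins Krt18, Krt8 and Krt7 differed by -4.20, -3.92 and -3.72. The higher genes were Krt17, at 177 and 983 FPKM (1.96), and Krt16 (1.31). Krt6a, at 166 and 147 FPKM (-0.67), and Krt6b, at 50.6 and 37.0 FPKM (-0.94), were neither higher nor lower. Both changed sign with scaling to the basal list and to all genes, and both were named after their values were seen. Krt17 is also a keratin of the hair follicle and was at 3459 FPKM in the dermis library. In the E18.5 dermis library, Krt13 was at 0.54 FPKM, Krt4 at 1.46 and Krt19 at 4.71, so these 3 genes were below the E16.5 skin in both E18.5 compartments.

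Of 20 wound and alarm genes, 13 were lower and 2 higher, with a median of -1.70, a share and median near those of all genes (63.8% and -1.48). In 8 of the 20 the epidermis was below 1 FPKM. S100a7a was at 27.6 FPKM, S100a8 at 8.68 FPKM and Defb4, a beta-defensin, at 7.20 FPKM in the skin, and all 3 were listed at 0 in the epidermis. Il1f9, an interleukin 36 cytokine, was at 157 and 36.0 FPKM (-2.59). Il18, an interleukin kept in keratinocytes, was at 24.5 and 126 FPKM (1.81).

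Cell cycle genes were all lower, against 63.8% of all genes. The 23 genes compared had a median of -2.97 and summed to 1146 FPKM in the skin, 225 in the control epidermis and 949 in the E18.5 dermis, where all 23 were higher than in the epidermis. Mki67, a marker of cycling cells, was at 39.5 FPKM in the skin and 2.08 in the epidermis (-4.22, SE at most 0.54). Top2a, a topoisomerase of dividing cells, was at 66.9 and 4.62 FPKM (-4.10, SE at most 0.53), and Ccna2, cyclin A2, at 54.1 and 2.67 FPKM (-4.41, SE at most 0.74). The smallest difference was that of the replication gene Mcm2, at 32.1 and 14.8 FPKM (-1.57). The skin also holds dividing dermal cells, and these values carry no information on which cells divided.

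Hair follicle lists had medians within or near 2-fold of the reference, and all of these medians changed sign with scaling to all genes. Of 7 inner root sheath genes, 0 were higher and 1 was lower, with a median of -0.58, and of 16 hair shaft and matrix genes 0 were higher and 8 lower, with a median of -0.97. Krt25, an inner root sheath keratin, was at 36.0 and 27.8 FPKM (-0.86, SE at most 0.75). Of 14 genes of follicle buds and placodes, 0 were higher and 9 lower, with a median of -1.28, a share near the 63.8% of all genes. Gli1, a target of hedgehog signalling, was at 46.6 and 18.7 FPKM (-1.77, SE at most 0.50), and Lef1, a Wnt pathway factor of the hair matrix, at 24.3 and 9.03 FPKM (-1.84, SE at most 0.58). All 14 bud genes were higher in the dermis library, where they summed to 1251 FPKM against 138 in the epidermis and 237 in the E16.5 skin. So were all 7 inner root sheath genes, with sums of 1801, 165 and 145 FPKM in the same order. Of the 16 hair shaft and matrix genes 14 were higher in the dermis, with sums of 527, 69.5 and 71.4 FPKM.

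Genes of other cell types were set beside the tissue labels. In 10 lists of such cells 87 genes were compared, of which 70 (80.5%) were lower and 4 (4.6%) higher. Of all genes compared, 63.8% were lower and 3.55% higher, so the share of higher genes was near that of all genes. Of these 87, 33 were below 1 FPKM in the epidermis and passed only through the skin: 7 of 9 endothelial, 6 of 9 adipocyte, 3 of 6 erythroid, 4 of 13 fibroblast and 4 of 13 muscle genes among them. Sums of FPKM are therefore given beside the counts. All 13 fibroblast genes were lower, with a median of -5.26, and summed to 3360 FPKM in the skin and 91.7 in the epidermis, which is 2.73% of the skin level. Col6a1, a collagen of connective tissue, was at 594 and 19.7 FPKM (-5.35, SE at most 0.55), and Lum, the matrix proteoglycan lumican, at 387 and 0.79 FPKM (-8.26, SE at most 1.29). All 13 muscle genes were lower, from 3542 to 90.2 FPKM in sum, as were all 9 endothelial genes (272 and 5.63 FPKM), all 6 erythroid genes (10282 and 496 FPKM) and all 9 adipocyte genes (1884 and 9.40 FPKM). RNA of these tissues was thus low in the epidermis library and abundant in the skin column. Scaling to keratinocyte genes accounts for it only in genes that keratinocytes alone express. On the other side, keratinocyte basal and follicle bud genes were higher in the library labelled dermis than in the epidermis library, as given above. The difference between those 2 libraries also varied with GC content, as given below. The cause was not tested, and the tissue labels were not checked further. Cyp26b1, the gene deleted elsewhere in the study, was at 35.0 FPKM in wild-type skin, 4.97 in control epidermis and 54.2 in control dermis, and the difference between epidermis and skin was -3.09. It was at 58.2 FPKM in the E16.5 skin labelled null. In the epidermis labelled mutant it was at 13.7 FPKM, above the control, and its 2 transcripts were at 11.8 and 1.89 FPKM there against 4.97 and 0 in the control. FPKM of whole transcripts do not show which exons are present, so these values do not check the genotype labels of those libraries, and values given for the epidermis labelled mutant rest on its label.

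The lists are not balanced in base composition, and the difference between these libraries varied with it. Over 10278 genes with at least 5 FPKM on either side, the unscaled log2 difference correlated with the GC content of the transcript (Spearman rho 0.45 across genes, which share the same libraries and are not independent) and with its length (rho -0.22). The median difference was -1.93 in the tenth of genes with the lowest GC content and 0.14 in the tenth with the highest. E18.5 control dermis, a different tissue of the same age, differed from E16.5 skin in the same direction and more steeply (rho 0.73 over 10545 genes, with medians of -1.82 and 1.39), although both comparisons share the skin column. Within the epithelial lists rho was 0.34 over 224 genes. A trend in GC content and length was then removed, an alternative chosen after seeing the data. The medians became 3.74 for Lce1, 1.92 for the transglutaminase list, 1.49 for kallikreins, -2.64 for periderm genes and -2.69 for cell cycle genes. Other lists lost calls: genes lower went from 5 to 1 for connexins and claudins, for barrier lipids and for stefins and serpins. Cldn1 then differed by -0.95, Dsc1 by -0.35 and Spink5 by -0.21. Of the 13179 genes with a known GC content, 377 (2.86%) were then higher and 7525 (57.1%) lower.

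**Figure D4:**
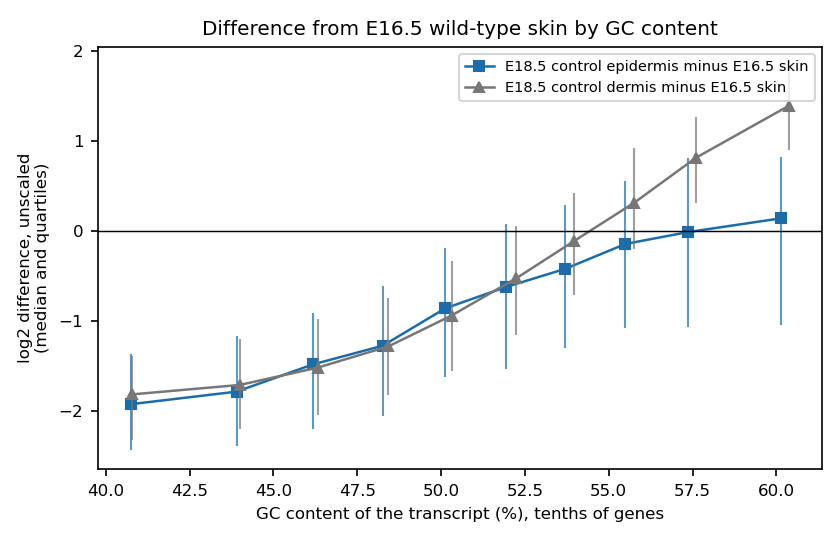
The median log2 difference from E16.5 wild-type skin, unscaled and with quartiles, is plotted against the median GC content of the transcript for groups of genes ranked by GC content, for E18.5 control epidermis and E18.5 control dermis. Both lines climb with GC content, the epidermis from -1.93 to 0.14 and the dermis from -1.82 to 1.39.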

How the data were processed

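RNA of mouse embryonic skin was extracted with Trizol and sequenced as Illumina TruSeq libraries, per the labels' protocols. Bowtie 0.12.7.0, TopHat 1.3.2, Cufflinks and Cuffdiff 1.3.0 with build mm9 are named in the submitters' processing notes, without settings; strand handling is not given in the sources used here. Per comparison, the authors deposited 1 table with FPKM for 27641 RefSeq transcripts, per the file headers. The same deposited tables hold the log2 fold of mutant over control, a test statistic (a score) and p-values and q-values, which compare genotypes and were used here only for the SE bound, the root of the summed squares of the SE in the 2 tables, where SE is the deposited fold divided by the statistic. FPKM were summed over transcripts, since 3624 symbols had several. Genes with a HIDATA, FAIL or LOWDATA row in either table were left out. These marks stood on 7, 1080 and 271 rows for the skin and on 11, 57 and 271 for the epidermis. Differences used a pseudocount of 1 FPKM, a minimum of 1 FPKM on either side and the median of the basal and spinous lists (Python 3.11.15, numpy 2.4.6, pandas 2.3.3). The calculation was tested on simulated data. The series' design text speaks of duplicates, and each E18.5 column names 1 library. Whether the skin libraries came from separate embryos is not stated.

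Named are the reference genes compared, up to 4 genes per list with the largest difference at 5 FPKM or more, the 10 highest and 10 lowest of all genes and of the epithelial lists, without short RNAs, predicted and sex-linked genes, and Cyp26b1. A few genes that qualify are not reported here. Other list members and genes of the complex were named after their values were seen, among them Lor, Flg2, Krt79, Car6, Skint3, Klk7, Klk5, Klf4 and Alox12b. The comparison and all 30 gene lists were chosen with earlier results of these data known, so no list is independent evidence. Table starts count from 0, so 1 was added. GC content and length come from the longest GENCODE coding transcript of the same build, known for 95.0% of genes compared.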

Additional observations from a re-analysis of the deposited data

How the results depend on the processing

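No paired analysis was possible because the columns are group values from separately scaled tables and no test was made. For the same reason no replicate could be left out: the skin column pools its libraries and the epidermis is 1 library. Counts moved most with the scaling. Genes higher, 492 as reported, numbered 1038 without scaling, 3268 with scaling to the median of all genes, 2305 to the basal list, 201 to the spinous list, 315 with a pseudocount of 5 FPKM and 3221 with the epidermis labelled En1cre;Cyp26b1f/- in place of the control. Genes lower, 8850 as reported, numbered 2831 with scaling to all genes, 4039 to the basal list and 3853 with the epidermis labelled mutant. In the epithelial lists, 53 genes higher became 120 with scaling to all genes, 106 to the basal list, 35 to the spinous list and 110 with the epidermis labelled mutant, and 100 genes lower became 38 and 49 with scaling to all genes and to the basal list. A scaling shifts every gene by the same amount. With the epidermis labelled mutant the reference median was also taken anew, so genes listed at 0 in both epidermis columns moved too. Upk1b went from -5.65 to -4.16 and S100a7a from -5.34 to -3.84. How much of the change in counts goes with this shift was not tested. Of 21 lists with a median past 2-fold, 16 kept their direction in all 13 alternatives and 11 stayed past 2-fold in all 13. Among those 11 were the Lce1, transglutaminase, periderm and cell cycle lists. Reversal is given here for values past 2-fold as reported. With scaling to all genes the direction reversed for the medians of the basal (0.35), follicle bud (0.21) and melanocyte lists (0.31) and for Lama3 (0.13), Lamb3 (0.47), Cdh3 (0.35), Dsc1 (0.33), Lce6a (0.41), Sptlc2 (0.066), Sox10 (0.25) and Dct (0.31). With scaling to the basal list it reversed for Lamb3 (0.13) and Lce6a (0.061), while the basal median and Cdh3 are 0 by construction. With the epidermis labelled mutant it reversed for Dsc1 (0.011), Sprr1b (0.61), Lipk (0.051), Sptlc2 (0.32), Cd74 (-1.20), H2-Aa (-0.37), H2-Ab1 (-0.97), H2-Eb1 (-0.024) and the Langerhans and T cell median (-0.37). In FPKM, Dsc1, Sprr1b, Lipk and Sptlc2 were still below the skin in that column. Sprr1b, Lipk and Sptlc2 were higher in FPKM there than in the control epidermis, while Dsc1 was lower. For Sprr1b and Lipk the shift seen in Upk1b was smaller than the distance to 0, so the reference alone did not reverse them. The other settings tried (scaling to the adhesion list, a pseudocount of 0.1 FPKM, no minimum or one of 5 FPKM, the highest transcript, failed rows kept, and the GC and length trend removed) reversed none of the values past 2-fold. Medians within 2-fold changed sign more readily. With scaling to all genes and to the basal list, they became 0.77 and 0.42 for connexins and claudins, 1.41 and 1.06 for transcription factors, 1.17 and 0.83 for stefins and serpins, 0.90 and 0.56 for the inner root sheath and 0.51 and 0.16 for the hair shaft. With the spinous list they became -0.52 for adhesion, -0.43 for envelope precursors and -0.57 for lipids, and with the adhesion list -0.047 for lipids. Without scaling they became 0.43 for transcription factors and 0.19 for stefins and serpins, with the trend removed 0.0047 and 0.39, with the epidermis labelled mutant 1.83 for connexins and claudins and 1.85 for transcription factors, and with a minimum of 5 FPKM 0.78 for the hair shaft. Named genes within 2-fold that changed sign numbered 9 each with scaling to all genes, scaling to the basal list and the epidermis labelled mutant, 8 with the spinous list and at most 4 under any other setting. Because depth is unknown, values listed at 0 or below 1 FPKM set no limit on expression.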

Other observations

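Immune genes of the epidermis column rested on 1 library. Of 6 Langerhans and T cell genes compared, 4 were higher and 0 lower (3.55% and 63.8% over all genes), with a median of 2.55. The higher genes were Cd74, H2-Aa, H2-Ab1 and H2-Eb1, all of MHC class II, and the other 2 stood below 0, the lowest at -0.99. Cd74, the invariant chain of MHC class II, was at 6.27 FPKM in E16.5 skin, 172 in control epidermis, 0.59 in the epidermis labelled En1cre;Cyp26b1f/- and 39.2 in control dermis (scaled difference 4.07 for control epidermis). H2-Aa was at 1.93, 38.9, 0.14 and 5.02 FPKM in the same order, and H2-Ab1 at 3.18, 51.5, 0.07 and 15.3 FPKM. The class II genes were therefore high in the control epidermis and lowest in the other epidermis of the same table. Cd207, which encodes langerin of Langerhans cells, was below 1 FPKM on both sides, at 0.04 and 0.39 FPKM. Mast cell proteases were lower in the epidermis: Cpa3 was at 455 and 1.58 FPKM (-7.97, SE at most 1.23). The complement genes C1qa, C1qb and C1qc of macrophages stayed near the reference, at 0.56, 0.18 and 0.37, although Mrc1, the mannose receptor of macrophages, was at 26.5 and 1.00 FPKM (-4.28).

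Some genes outside the epithelial lists differed from the skin by as much as the Lce1 genes, at much lower epidermis levels. Chga, which encodes the secretory granule protein chromogranin A, was at 0.38 FPKM in E16.5 skin, 96.4 in control epidermis, 117 in the epidermis labelled mutant and 1.76 in control dermis (5.64, SE at most 0.77). Cyp2f2, a cytochrome P450, was at 1.73 and 74.9 FPKM (4.29, SE at most 0.59), and Mt4, a metallothionein of stratified epithelium, at 3.53 and 121 FPKM (4.25). Skint9, of a family expressed in keratinocytes and thymus, was at 0.22 and 41.4 FPKM (4.62), while its relatives Skint3 and Skint6 stood at 1.40 and 1.22, Skint5, Skint10, Skint4 and Skint1 at 0.67, 0.52, 0.40 and 0.10, and Skint7 at -0.47. Car6, a secreted carbonic anhydrase, was at 0.69 and 27.6 FPKM (3.58, SE at most 0.72). Krt79, a keratin of the follicle opening, was at 28.2 and 586 FPKM (3.83, SE at most 0.67) and at 721 FPKM in the dermis. At the other end, Krtap13, named as a keratin-associated protein, was at 2509 FPKM in the skin and listed at 0 in the control epidermis and in the control dermis. That skin value stands apart from the 16 hair shaft and matrix genes, which summed to 71.4 FPKM in the same column, and its accuracy was not tested. Also lower were the imprinted genes Mest and Rian, at 433 and 330 FPKM in the skin and 2.50 and 1.93 FPKM in the epidermis (-7.46 and -7.32).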
